A study of Mus musculus with 12 samples.

Results

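The genes described here are 10 mouse Nlrp genes with known expression in oocytes, Nlrp2, Nlrp4a, Nlrp4b, Nlrp4c, Nlrp4e, Nlrp4f, Nlrp9a, Nlrp9b, Nlrp9c and Nlrp14. They were taken by name, with every probe that the array annotation assigns to 1 of these symbols, which gave 15 probes; the array names 19057 genes in all. All 10 symbols matched the RefSeq gene table through their gene identifier. RNA came from whole ovaries of FVB/N female mice at 14 dpn (days post natal), with 3 Illumina bead arrays in each of 4 groups. The 4 genotype and transgene classes were Foxo3-/- ovaries with the transgene (Tg Foxo3-/-), Foxo3+/- ovaries with it (Tg Foxo3+/-), Foxo3-/- ovaries without it (NoTg Foxo3-/-) and Foxo3+/- ovaries without it (NoTg Foxo3+/-). All 4 groups carried at least 1 null allele of the forkhead transcription factor gene Foxo3, and no wild-type ovary was analysed here. The study's title describes the transgene as a constitutively active Foxo3 in oocytes; its promoter, and whether an array holds 1 animal or a pool, are not given in the sources used here.

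NLRP proteins carry a pyrin domain, a nucleotide-binding NACHT domain and leucine-rich repeats. Some, such as NLRP3, assemble inflammasomes in immune cells, whereas a reproductive branch of the family is made mainly in the growing oocyte and stored for the early embryo. In the mouse this branch expanded by duplication, so that the Nlrp4 and Nlrp9 genes exist as several close copies. Nlrp5, also called Mater, belongs to the subcortical maternal complex, a protein assembly under the egg membrane, and is not among the 10 genes. The arrays measured whole ovary and cannot assign a signal to the oocyte; fewer oocytes and less RNA per oocyte cannot be told apart in such samples.

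Some of the copies are neighbours in the genome. In the RefSeq annotation of GRCm38.p6, 9 of the 10 genes are on chromosome 7 and Nlrp4f is on chromosome 13. Nlrp4a is flanked by Nlrp9c and Nlrp9a, and Nlrp4e is the neighbour of Nlrp5. RefSeq promoter windows (250 bases before to 50 bases after the annotated start) were held for 9 of the 10 genes, 11 windows in all. They are shown for the pairs of copies that aligned with the highest scores within each family. These pairs show how alike the closest copies are, and in the first pair only Nlrp4a was detected. Capitals mark bases that were identical in the local alignment of the pair, and each sequence is the aligned part of its window, 5′ to 3′.
Nlrp4a (chr7:26435365-26435663, plus strand): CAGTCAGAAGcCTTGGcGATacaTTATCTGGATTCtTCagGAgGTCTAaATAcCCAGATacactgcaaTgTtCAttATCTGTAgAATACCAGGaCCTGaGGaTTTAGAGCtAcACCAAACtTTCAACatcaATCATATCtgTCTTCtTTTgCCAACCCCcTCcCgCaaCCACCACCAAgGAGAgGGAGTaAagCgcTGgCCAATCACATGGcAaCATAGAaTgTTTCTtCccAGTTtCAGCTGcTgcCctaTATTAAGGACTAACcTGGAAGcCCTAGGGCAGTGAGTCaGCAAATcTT
Nlrp4b (chr7:10687551-10687835, plus strand): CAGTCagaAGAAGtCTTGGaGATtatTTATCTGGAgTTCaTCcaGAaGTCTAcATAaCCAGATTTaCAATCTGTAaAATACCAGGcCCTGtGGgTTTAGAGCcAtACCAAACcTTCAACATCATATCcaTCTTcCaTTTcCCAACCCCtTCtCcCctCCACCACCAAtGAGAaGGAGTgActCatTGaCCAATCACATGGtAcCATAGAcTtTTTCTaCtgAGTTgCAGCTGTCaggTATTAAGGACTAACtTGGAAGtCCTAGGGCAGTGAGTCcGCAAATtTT
Nlrp9a (chr7:26534787-26535072, plus strand): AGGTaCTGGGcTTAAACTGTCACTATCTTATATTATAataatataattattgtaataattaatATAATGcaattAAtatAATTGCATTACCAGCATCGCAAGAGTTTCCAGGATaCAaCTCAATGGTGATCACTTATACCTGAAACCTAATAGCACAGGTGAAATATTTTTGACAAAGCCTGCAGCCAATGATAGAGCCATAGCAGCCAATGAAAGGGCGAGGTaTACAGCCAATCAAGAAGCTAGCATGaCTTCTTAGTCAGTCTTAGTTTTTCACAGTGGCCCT
Nlrp9c (chr7:26403695-26403949, minus strand): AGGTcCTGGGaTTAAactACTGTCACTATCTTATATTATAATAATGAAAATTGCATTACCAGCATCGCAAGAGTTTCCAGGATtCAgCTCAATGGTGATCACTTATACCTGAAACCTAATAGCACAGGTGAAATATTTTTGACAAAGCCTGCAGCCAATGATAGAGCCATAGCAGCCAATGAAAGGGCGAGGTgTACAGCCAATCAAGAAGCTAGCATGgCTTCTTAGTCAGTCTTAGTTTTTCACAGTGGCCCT
Nlrp4a and Nlrp4b matched at 229 of 304 aligned positions (75.3%), and Nlrp9a and Nlrp9c at 246 of 289 (85.1%). Nlrp4c matched the same Nlrp4a window at 210 of 282 positions (74.5%). Nlrp4c also matched the Nlrp4b window shown, at 209 of 282 positions (74.1%). A short stretch of Nlrp4f matched the Nlrp4a window shown at 41 of 45 positions (91.1%). Some other pairs were less alike. Nlrp9a matched Nlrp9b at 133 of 241 positions (55.2%), and Nlrp4b matched Nlrp4e at 109 of 185 (58.9%). The other Nlrp4a window matched the Nlrp4b window shown at 49 of 82 positions (59.8%). The Nlrp9a part holds an AT-rich insert that the Nlrp9c part lacks, visible as its longest run of lower-case letters.

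Of the motifs counted on both strands, the E-box CANNTG, bound by helix-loop-helix factors such as the oocyte factor FIGLA, was in 10 of the 11 windows and in 72.3% of all 32851 windows in the table. The NOBOX element TAATTG was in 2 of 11 windows and in 8% of all, with 2 matches in Nlrp9a and 1 in Nlrp9b. The FOXO element TGTTTAC was in 0 of 11 windows and in 3.65% of all. The TATA box TATAAA was in 1 of 11 windows, that of Nlrp9b, and in 13.6% of all. Nlrp4a and Nlrp4b have 2 windows each among the 11, and the 2 of Nlrp4b overlap. A match describes letters within 300 bases and not a bound site.

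Whether a member could be measured differed among the copies, and among probes of 1 gene. A probe counted as detected on an array when its deposited detection p-value was under 0.05, a signal above the negative control beads. Nlrp4a, Nlrp4e, Nlrp9a and Nlrp9c, each with 1 probe, were detected on all 12 arrays. Nlrp14, needed in the mouse egg for early embryo development, was detected on all 12 arrays by 2 of its 3 probes and on none by the third. Nlrp4c was detected on all 12 arrays by 1 of its 4 probes (ILMN_2935933), on 3 arrays by another (ILMN_1214165) and on none by the other two. Nlrp2, a maternal factor in the mouse, and Nlrp4b each had a single probe that was detected on no array. Raw intensity of the 5 undetected probes was 63.6 to 90.1, and the arrays' background, the median raw intensity of probes with a detection p-value over 0.5, was 65.4 to 81.2.

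**Figure D1:**
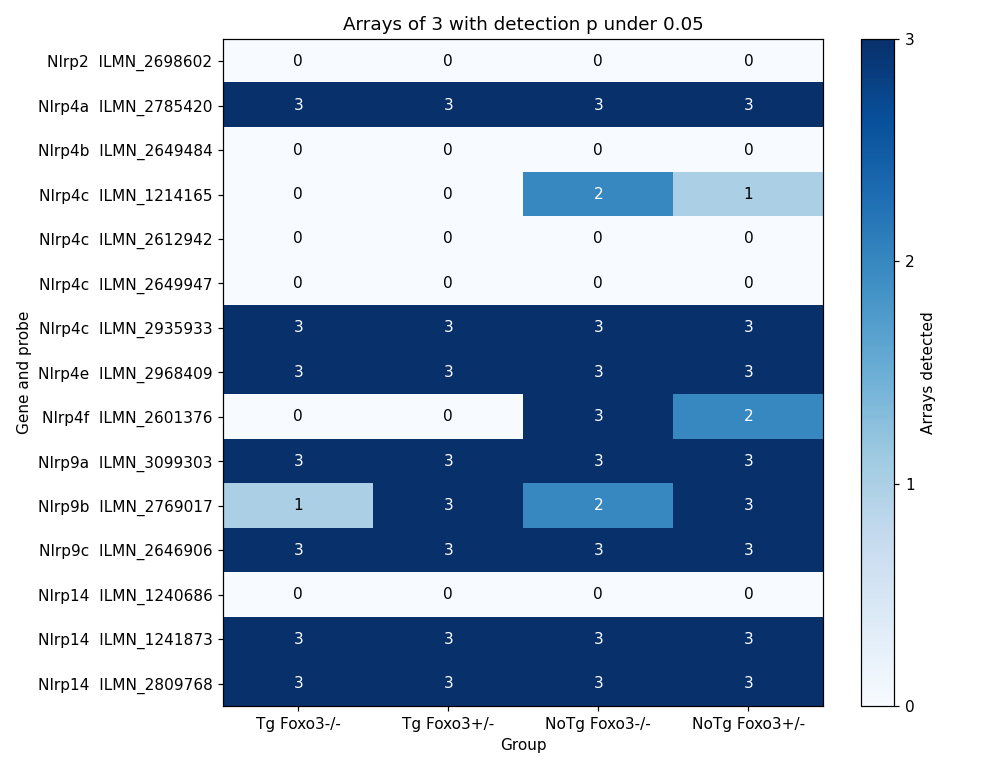
Number of arrays (of 3) in each group on which each of the 15 Nlrp probes was detected at p under 0.05; rows are probes, columns groups. The Nlrp4f probe was detected on no Tg array and on 5 of 6 NoTg arrays in total, shown as 3 in NoTg Foxo3-/- and 2 in NoTg Foxo3+/-.

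A probe was tested when at least 3 arrays detected it, which kept 10 of the 15 Nlrp probes, from 8 of the 10 genes, and 22511 probes of the array in all. Values below are log2 intensity after background correction and quantile normalization. Differences were tested with limma over all 22511 probes, and a probe is called when its adjusted p (Benjamini-Hochberg) was under 0.05. Each array detected between 20072 and 22015 probes. Array background was 68.5 to 74.2 (Tg Foxo3-/-), 65.4 to 67 (Tg Foxo3+/-), 79.9 to 81.2 (NoTg Foxo3-/-) and 76.3 to 79.8 (NoTg Foxo3+/-), so that the 4 ranges did not overlap. Of the 3 Foxo3 probes 1 was tested (ILMN_2501865), and it did not separate the genotypes, with a log2 difference of 0.33 in Tg (limma adjusted p = 0.348) and 0.37 in NoTg ovaries (limma adjusted p = 0.317), Foxo3-/- minus Foxo3+/-. Where it lies relative to the deleted part is not known here, so it does not check the labels.

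The first comparison asked how loss of both Foxo3 alleles altered the family when the transgene was present. Nlrp14 rose in Tg Foxo3-/- against Tg Foxo3+/- ovaries by 1 of its 2 tested probes. That probe (ILMN_1241873) read 13.31, 13.23 and 13.40 in Tg Foxo3-/- arrays, against 12.63, 12.72 and 13.05 in Tg Foxo3+/- arrays. Every Tg Foxo3-/- array lay above every Tg Foxo3+/- array. The difference was 0.51 ± 0.12 (SE; 95% interval 0.26 to 0.76), or 1.42-fold (limma adjusted p = 0.0331). It was the only call among the 10 Nlrp probes, while 2.18% of all tested probes were called, 1.49% higher and 0.689% lower.

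The other tested Nlrp14 probe (ILMN_2809768) read 14.43, 14.53 and 14.51 in Tg Foxo3-/- arrays, against 14.32, 14.34 and 14.31 in Tg Foxo3+/- arrays. These arrays did not overlap either, but the difference was smaller, at 0.17 (95% interval -0.02 to 0.35, limma adjusted p = 0.349). Its raw intensity reached 16373 to 27107 over the 12 arrays, where the brightest probe of an array read 36422 to 45015. The 2 probes therefore gave the same direction and different sizes, and whether their brightness bears on that was not tested. The call of the first probe was lost without NoTg Foxo3+/- replicate 2 (adjusted p = 0.0502), Tg Foxo3+/- replicate 1 (0.0759) or 2 (0.113), or Tg Foxo3-/- replicate 1 (0.126), 2 (0.0639) or 3 (0.153). It was also lost with median scaling (limma adjusted p = 0.209), the authors' normalized values (0.0783), no detection filter (0.0697) and array background as a covariate (0.401), with a difference of 0.42 to 0.64 over all settings.

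Among the Nlrp4 copies, Nlrp4c by its bright probe was 8.22, 8.41 and 8.38 in Tg Foxo3-/- arrays, against 7.90, 7.95 and 7.89 in Tg Foxo3+/- arrays. The groups did not overlap, and the difference of 0.42 ± 0.14 (SE; 95% interval 0.12 to 0.72) did not pass (limma adjusted p = 0.138). Nlrp4e, for which the mouse embryo has a known need before implantation, was 6.87, 7.23 and 6.92 in Tg Foxo3-/- arrays, against 6.73, 6.52 and 6.91 in Tg Foxo3+/- arrays. These groups overlapped (difference 0.29, adjusted p = 0.451). Nlrp4a was 8.96 to 9.003 in Tg Foxo3-/- arrays, against 8.72, 8.82 and 8.89 in Tg Foxo3+/- arrays, without overlap and with a small difference (0.16, 95% interval -0.15 to 0.47, limma adjusted p = 0.632).

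The Nlrp9 copies did not share a direction. Nlrp9b, known in the mouse intestine as a sensor of viral RNA, was 4.32, 4.95 and 4.64 in Tg Foxo3-/- arrays, against 4.95, 5.11 and 5.30 in Tg Foxo3+/- arrays. All Tg Foxo3-/- values were below all Tg Foxo3+/- values, by a margin under the second decimal; 1 of 3 Tg Foxo3-/- arrays detected it, against 3 of 3, and the difference did not pass (-0.49, 95% interval -0.92 to -0.05, limma adjusted p = 0.237). Nlrp9c was 9.45, 9.60 and 9.58 in Tg Foxo3-/- arrays, against 9.38, 9.27 and 9.41 in Tg Foxo3+/- arrays (difference 0.19, adjusted p = 0.489). Nlrp9a was 9.38, 9.72 and 9.67 in Tg Foxo3-/- arrays, against 9.67, 9.70 and 9.66 in Tg Foxo3+/- arrays (difference -0.09, 95% interval -0.35 to 0.18). Nlrp9c did not overlap between the groups and Nlrp9a did. Over the 10 tested probes, 6 lay wholly above and 1 wholly below Tg Foxo3+/- arrays, where 12.9% and 11.7% of all tested probes did. One of the 6 was the dim Nlrp4c probe (ILMN_1214165), which no Tg array detected and which passed the filter through NoTg arrays, so that its values here lie within background.

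**Figure D2:**
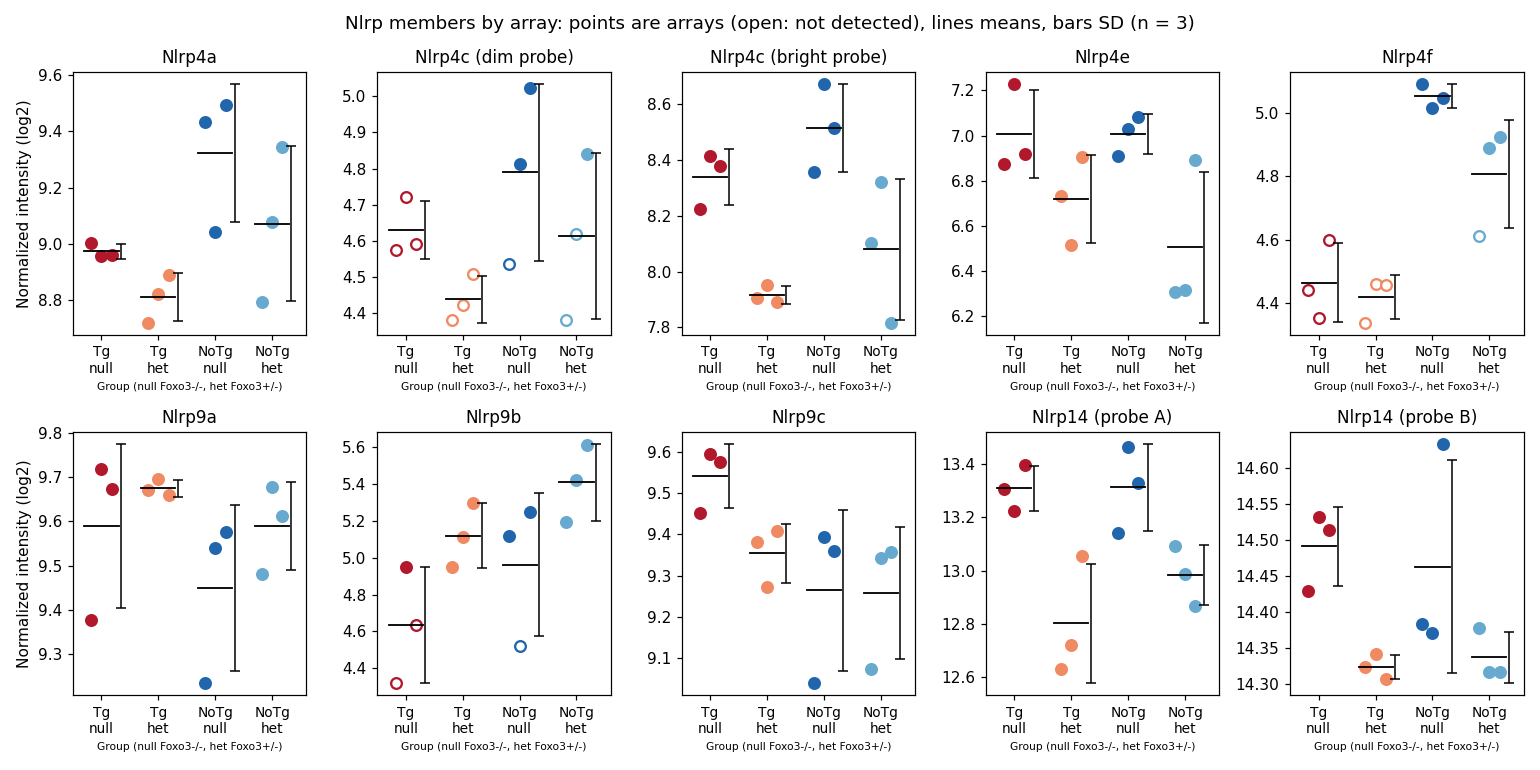
Normalized log2 intensity (y axis, own scale per panel) of the 10 tested Nlrp probes on every array, by group (x axis, null for Foxo3-/- and het for Foxo3+/-); filled points were detected, open points were not, lines are means and bars SD (n = 3). Nlrp14 probe A is ILMN_1241873 and probe B ILMN_2809768, and probe A is higher on every Tg Foxo3-/- array (13.23 to 13.40) than on any Tg Foxo3+/- array (12.63 to 13.05).

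Without the transgene, none of the 10 Nlrp probes was called between Foxo3-/- and Foxo3+/- ovaries by limma, while 0.911% of all tested probes were called (0.4% higher, 0.511% lower). Of the 10 Nlrp probes, 4 had an unadjusted p under 0.05, as did 14.7% of all tested probes. The ILMN_1241873 probe of Nlrp14 was 13.14, 13.47 and 13.33 in NoTg Foxo3-/- arrays, against 13.09, 12.99 and 12.87 in NoTg Foxo3+/- arrays. The groups did not overlap, and the difference of 0.33 ± 0.12 (SE; 95% interval 0.08 to 0.58) did not pass (limma adjusted p = 0.193). Nlrp4c by its bright probe was 8.36, 8.67 and 8.52 in NoTg Foxo3-/- arrays, against 8.10, 8.32 and 7.82 in NoTg Foxo3+/- arrays, again without overlap (difference 0.44, limma adjusted p = 0.160).

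Nlrp4e was 6.91, 7.03 and 7.08 in NoTg Foxo3-/- arrays, against 6.31, 6.32 and 6.89 in NoTg Foxo3+/- arrays. The lowest NoTg Foxo3-/- array was just above the highest NoTg Foxo3+/- array, NoTg Foxo3+/- replicate 3, and the difference was 0.50 (95% interval 0.12 to 0.88, limma adjusted p = 0.199). Nlrp4a overlapped between the genotypes, at 9.32 ± 0.25 in NoTg Foxo3-/- and 9.07 ± 0.28 in NoTg Foxo3+/- ovaries (SD, n = 3 each). So did Nlrp9a, at 9.45 ± 0.19 against 9.59 ± 0.10, and Nlrp9c, at 9.26 ± 0.20 against 9.26 ± 0.16. The difference for Nlrp9c was 0.01 with a 95% interval of -0.26 to 0.27.

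Nlrp9b was 5.12, 4.52 and 5.25 in NoTg Foxo3-/- arrays, against 5.20, 5.42 and 5.61 in NoTg Foxo3+/- arrays. The groups overlapped, and NoTg Foxo3-/- replicate 2 was the lowest and the only 1 of the 6 that did not detect it (difference -0.45, 95% interval -0.88 to -0.02, limma adjusted p = 0.322). Nlrp4f was 5.05 ± 0.04 in NoTg Foxo3-/- and 4.81 ± 0.17 in NoTg Foxo3+/- ovaries (SD, n = 3 each), without overlap (difference 0.25, limma adjusted p = 0.435). The brighter Nlrp14 probe, ILMN_2809768, was 14.46 ± 0.15 in NoTg Foxo3-/- and 14.34 ± 0.04 in NoTg Foxo3+/- ovaries, and overlapped (difference 0.13, limma adjusted p = 0.535). In total 4 of the 10 probes lay wholly above and 0 wholly below the NoTg Foxo3+/- arrays, where 9.11% and 8.74% of all tested probes did. Of the 4 above, 1 was Nlrp4f, detected on 3 NoTg Foxo3-/- arrays, 2 NoTg Foxo3+/- arrays and no Tg array. It passed the filter through the arrays where it was high, so nothing is read from that count.

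**Figure D3:**
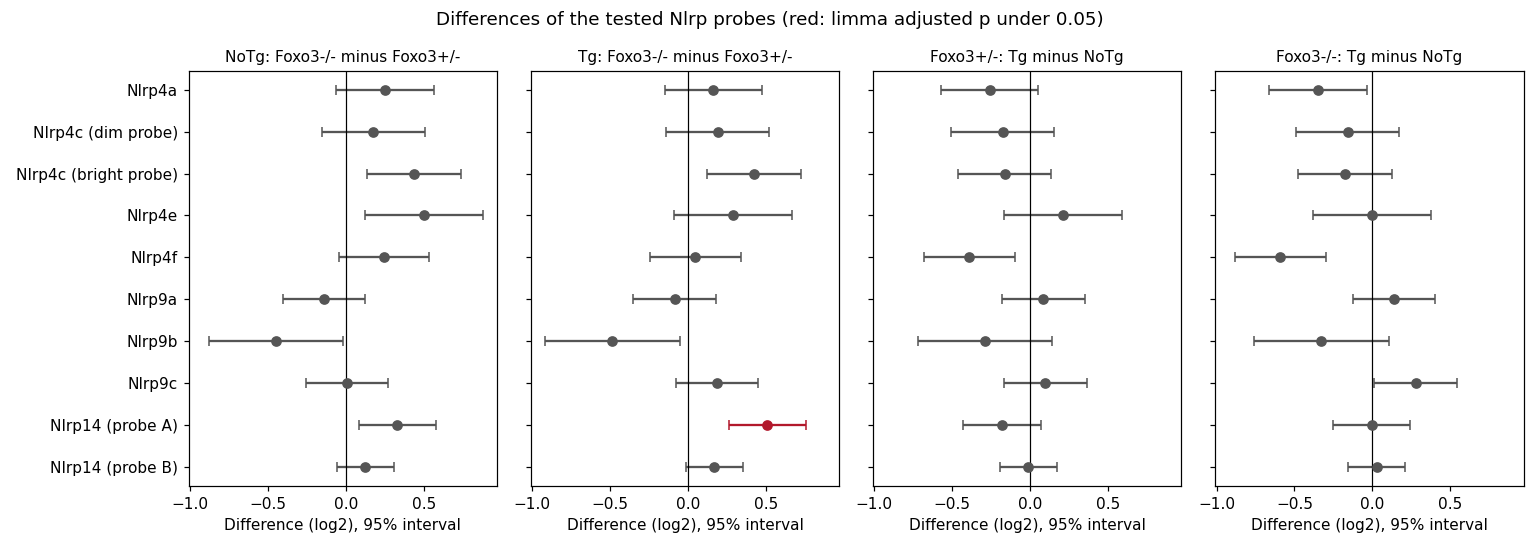
Log2 differences (x axis) of the 10 tested Nlrp probes (y axis) in the 4 comparisons, each as named above its panel, with 95% intervals from limma; red marks an adjusted p under 0.05. The ILMN_1241873 probe of Nlrp14 (probe A) is the only red point, at 0.51 in Tg ovaries.

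The second question was what the transgene did within each genotype, and no Nlrp probe was called by limma in either. In Foxo3-/- ovaries, where 0.191% of all tested probes were called (0.00888% higher, 0.182% lower), 3 of the 10 Nlrp probes had an unadjusted p under 0.05, as did 10.5% of all tested probes. Nlrp4f was one of them and is reported in the mouse as a partner of the subcortical maternal complex. Its probe was tested only because NoTg arrays, where it is higher, detected it. Its difference is therefore given as a description, and nothing is read from the count that includes it. Its raw intensity was 80.3, 70.4 and 78.2 in Tg Foxo3-/- arrays, detected on none, against 106.3, 105.6 and 104.8 in NoTg Foxo3-/- arrays, detected on all 3. The log2 difference was -0.59 (95% interval -0.88 to -0.30), without passing (limma adjusted p = 0.0795). A fold taken from the detection floor was 1.15 in Foxo3-/- and 0.995 in Foxo3+/- ovaries, so in Foxo3+/- ovaries it bounds no reduction. It sets the NoTg mean against the lowest normalized value of a detected probe on each Tg array, or the probe's own value where higher. This fold carries no sampling error.

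In Foxo3+/- ovaries Nlrp4f was at 67, 73.7 and 72.3 in Tg arrays, again detected on none, against 90.6, 95.5 and 95.6 in NoTg arrays (limma adjusted p = 0.288). The probe is close to background, and the background of NoTg arrays was also the higher. It was called lower in Tg Foxo3-/- ovaries with the authors' normalized values (limma adjusted p = 0.0162) and with array weights (limma adjusted p = 0.0207). These calls rest on the same filter, so nothing is read from them.

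Nlrp4a was 8.97 ± 0.03 in Tg Foxo3-/- and 9.32 ± 0.25 in NoTg Foxo3-/- ovaries (SD, n = 3 each), without overlap (difference -0.35, 95% interval -0.66 to -0.04, limma adjusted p = 0.399). Nlrp9c was 9.54 ± 0.08 in Tg Foxo3-/- and 9.26 ± 0.20 in NoTg Foxo3-/- ovaries (difference 0.28, adjusted p = 0.445). The ILMN_1241873 probe of Nlrp14 was at 13.31 in both (difference -0.004, 95% interval -0.25 to 0.24). Wholly above NoTg Foxo3-/- lay 1 of the 10 probes and wholly below 2, where 8.79% of all tested probes did in each direction. Of the 2 below, 1 was Nlrp4f, carried through the filter by NoTg arrays alone, so nothing is read from that count.

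In Foxo3+/- ovaries, where 0.364% of all tested probes were called (0.00444% higher, 0.36% lower), 1 of the 10 Nlrp probes, that of Nlrp4f, had an unadjusted p under 0.05, as did 9.96% of all tested probes. Nlrp4f was also the 1 probe that lay wholly below its NoTg arrays (7.84% of all tested probes did), and since NoTg arrays alone carried it through the filter, nothing is read from either count. Wholly above lay 0 of the 10, and 7.04% of all. Nlrp14 by ILMN_1241873 was 12.80 ± 0.22 in Tg Foxo3+/- and 12.98 ± 0.11 in NoTg Foxo3+/- ovaries (difference -0.18, 95% interval -0.43 to 0.07). Nlrp4e, at 6.72 ± 0.20 in Tg Foxo3+/- and 6.51 ± 0.33 in NoTg Foxo3+/- ovaries, overlapped between the groups.

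Whether the genotype difference itself differed between Tg and NoTg ovaries was tested as an interaction. In limma's interaction test 0 of the 10 Nlrp probes and 0% of all tested probes were called, and 0 Nlrp probes had an unadjusted p under 0.05 (952 of all 22511 did). The Nlrp14 probe that was called with the transgene had an interaction of 0.18 (95% interval -0.17 to 0.53, adjusted p = 0.994), so its call in Tg and not in NoTg ovaries is no shown difference between them.

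By mean level, both Foxo3-/- groups stood above both Foxo3+/- groups for ILMN_1241873 of Nlrp14. Arrays of the 2 Foxo3-/- groups overlapped each other, and so did those of the 2 Foxo3+/- groups. The bright Nlrp4c probe also had both Foxo3-/- means above both Foxo3+/- means, 8.34 (Tg Foxo3-/-), 7.92 (Tg Foxo3+/-), 8.52 (NoTg Foxo3-/-) and 8.08 (NoTg Foxo3+/-). The same held for Nlrp4e, for ILMN_2809768 of Nlrp14 and for the dim Nlrp4c probe, which is near background. For Nlrp9a the Tg Foxo3+/- mean was the highest and the NoTg Foxo3-/- mean the lowest, and neighbours in that order overlapped throughout.

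Over the 12 arrays, which share their genotype and transgene groups, Nlrp9a and Nlrp9c correlated at Pearson r = 0.61, and at r = 0.83 in deviations from the group means. Such values were not particular to this pair. Nlrp4a and Nlrp4f correlated at r = 0.83 over the 12 arrays, and the dim Nlrp4c probe and Nlrp9c at r = 0.84 in such deviations. The 2 tested Nlrp14 probes correlated at r = 0.63, and at r = 0.02 in such deviations. The mean of 13 oocyte markers (among them Zp3, Gdf9 and Dazl) correlated at r = 0.90 with Nlrp14 by ILMN_1241873, and at 0.64 by its brighter probe ILMN_2809768. It correlated at 0.79 with the bright Nlrp4c probe, 0.65 with the dim one, 0.62 with Nlrp4a, 0.59 with Nlrp4f and 0.40 with Nlrp4e. For the Nlrp9 copies r was 0.03 (Nlrp9c), -0.26 (Nlrp9b) and -0.46 (Nlrp9a). These values over the 12 arrays include the differences between groups. Among 12165 other genes, those nearest to that Nlrp14 probe were Slc6a7 (r = 0.94), the germline transcription factor gene Pou5f1 (r = 0.93), Myot (r = 0.93), Sp140 (r = 0.93) and Taf1a (r = 0.92). Nearest to Nlrp4a was Eif4enif1, which encodes a transporter of the cap-binding protein eIF4E (r = 0.92), and the oocyte-secreted Oosp1 was also among its 5 nearest (r = 0.88). Nearest to the bright probe of Nlrp4c was Tex19.2 (r = 0.93), to Nlrp4e Noc3l (r = 0.90), to Nlrp9a Azi2 (r = 0.91) and to Nlrp9c Gin1 (r = 0.91). Of the 50 nearest genes taken over all tested Nlrp probes, 1 was on the oocyte marker list. Each is among the highest of 12165 correlations over only 12 arrays, and none was tested.

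Oocyte markers and genes of the maternal complex were called between genotypes with and without the transgene, and the only Nlrp call was with it. Limma's interaction test called no probe of these lists, so no list was shown to differ between Tg and NoTg ovaries. Of 13 tested oocyte markers, 4 rose in Tg Foxo3-/- against Tg Foxo3+/- ovaries (the zona pellucida genes Zp1 and Zp3, and Dppa3 and Npm2, maternal factors stored in the egg). In that comparison 1.49% of all tested probes were called higher. Of the 13 markers 11 lay above 0, and Figla (-0.32) and Sohlh1 (-0.05) lay below. The list's median difference was 0.18, beside 0.18 over the 10 Nlrp probes, where the median of all tested probes was -0.001. Without the transgene 2 rose, Zp1 and Zp3, where 0.4% of all tested probes were called higher. The markers' median was 0.15, against 0.21 over the Nlrp probes and 0.006 over all. Both Nlrp medians take 2 probes each of Nlrp14 and Nlrp4c. They also include Nlrp4f and the dim Nlrp4c probe, which only NoTg arrays carried through the filter, so nothing is read from them. There 8 of the 13 lay above 0, while Figla (-0.26), Sohlh1 (-0.12), Nobox (-0.04), Zp2 (-0.03) and Dazl (-0.02) lay below. The summed linear intensity of the 13 markers was 68616 to 71162 in Tg Foxo3-/- and 50762 to 53979 in Tg Foxo3+/- arrays. It was 68842 to 74992 in NoTg Foxo3-/- and 55720 to 59250 in NoTg Foxo3+/- arrays, and its part in the Nlrp differences was not tested. The list also held Zar1, which was not tested. The sum of the 5 stroma markers was lower in Foxo3-/- arrays, 15147 to 16241 in Tg Foxo3-/- and 20231 to 22524 in Tg Foxo3+/- arrays, and 14705 to 16614 in NoTg Foxo3-/- and 19570 to 23724 in NoTg Foxo3+/- arrays. Of these markers Dcn, which encodes the matrix proteoglycan decorin, fell in Foxo3-/- ovaries with and without the transgene (-0.43 in each), Pdgfra fell with it (-0.62), and the collagen gene Col1a2 lay above 0 in both (0.24 and 0.17, not called). Col1a1 was at 0.05 with the transgene and -0.13 without it, not called in either. The 6 surface epithelium markers summed to 2514 to 3121 in Tg Foxo3-/- and 3146 to 3552 in Tg Foxo3+/- arrays, and to 2371 to 2732 in NoTg Foxo3-/- and 3481 to 3854 in NoTg Foxo3+/- arrays. All 6 had differences below 0 in both comparisons, and 1 was called, Lgals2 without the transgene (-0.90). The part of stroma and epithelium in the Nlrp differences was not tested.

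Of the 6 subcortical maternal complex genes, 3 rose in Tg Foxo3-/- against Tg Foxo3+/- ovaries, where 1.49% of all tested probes were called higher. The 3 genes were Khdc3 (log2 difference 1.05), Tle6 (0.62) and Padi6 (0.48), and the complex's own Nlrp member, Nlrp5, was at 0.28 (limma adjusted p = 0.145). Without the transgene Tle6 rose (0.48, limma adjusted p = 0.0438), while Khdc3 was at 0.49 (limma adjusted p = 0.0905), Padi6 at 0.33 (limma adjusted p = 0.0734) and Nlrp5 at 0.21. There 0.4% of all tested probes were called higher. All 6 genes were above 0 in both comparisons, and limma's interaction test called none of them (1 had an unadjusted p under 0.05).

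Of 18 other NLR genes, among them those that act in immunity, 14 had a probe and 5 were tested, namely Nlrp10, Nlrc5, Nlrx1, Nod1 and Nod2, and limma called 0 in each of the 4 comparisons (1 had an unadjusted p under 0.05 in Tg Foxo3-/- against Tg Foxo3+/- ovaries, and 0 in the others). The inflammasome sensor gene Nlrp3 did not pass the detection filter. Of 9 inflammasome partners 7 were tested and limma called 0 between genotypes, while 5 in Tg and 2 in NoTg ovaries had an unadjusted p under 0.05, as did 16.6% and 14.7% of all tested probes. Il18, which encodes a cytokine that inflammasomes release, was at -0.58 (limma adjusted p = 0.0781) in Tg and -0.60 (limma adjusted p = 0.0927) in NoTg ovaries, Foxo3-/- minus Foxo3+/-. The 4 tested macrophage and leukocyte markers of 6 summed to 372 to 412 in Tg Foxo3-/- and 522 to 580 in Tg Foxo3+/- arrays. They summed to 403 to 631 in NoTg Foxo3-/- and 449 to 684 in NoTg Foxo3+/- arrays, which overlapped, and their part in the Il18 values was not tested.

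**Figure D4:**
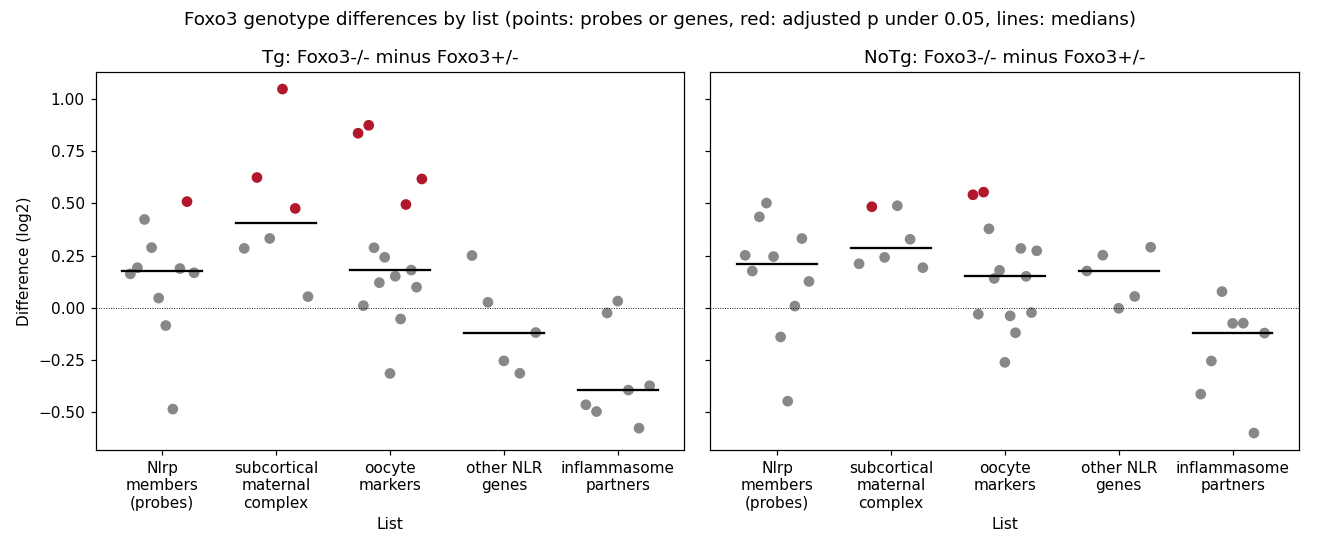
Log2 difference (y axis) between Foxo3-/- and Foxo3+/- ovaries with the transgene (left) and without it (right) for the Nlrp probes and the genes of 4 lists (x axis); lines are medians and red marks an adjusted p under 0.05. The Nlrp probes spread from -0.49 to 0.51 with the transgene and from -0.45 to 0.50 without it.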

How the data were processed

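Illumina bead arrays measured total RNA of 12 ovary samples. The deposited table of raw intensity is linear and not normalized, and per the file headers it pairs each sample with a detection p-value per probe. A second deposited table holds intensity normalized by the authors; its values are linear and uncentred, how it was made is not stated in the labels, and it served only as an alternative after log2. Columns belonging to no sample numbered 0. Background correction of these deposited values used normexp with the detection p-values (offset 16), followed by quantile normalization and log2, in limma 3.58.1 (R 4.3.3). Probes detected at p under 0.05 on at least 3 arrays were fitted with a mean per group over all 12 arrays (lmFit, eBayes with trend), with Benjamini-Hochberg adjustment over all tested probes, two-sided. A gene on a context list was represented by its brightest tested probe, every probe of the 10 Nlrp genes was named, and so were list genes that were called or had the smallest p, and the genes with the highest correlation to each tested probe. Of all 45281 probes, 34885 have 1 gene symbol in the annotation table. The members, lists and alternatives were chosen with earlier results of these data known. The fit was tested on simulated data. The number of arrays limits precision, and since no source says the 3 arrays of a group are separate animals, their spread, on which the p-values rest, may be technical. Promoters are from RefSeq (GRCm38.p6), aligned with Biopython 1.88 (match 1, mismatch -1, gap opening -2, extension -0.5). No source names the array's build, so that assembly was otherwise used only for names, chromosomes and neighbours. Probe sequences were not used here, so how far a probe separates close copies was not tested.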

Additional observations from a re-analysis of the deposited data

How the results depend on the processing

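In Tg Foxo3-/- against Tg Foxo3+/- ovaries the count of called Nlrp probes was 1, and it was 0 with no filter, the authors' normalized values, median scaling, array background as a covariate and 1 probe per gene, and 3 with array weights (2 higher and 1 lower). With 1 probe per gene the called Nlrp14 probe gives way to the brighter one. In NoTg Foxo3-/- against NoTg Foxo3+/- ovaries array weights gave 1 in place of 0, Nlrp4e. In Tg Foxo3-/- against NoTg Foxo3-/- ovaries the authors' values and array weights each gave 1 in place of 0, Nlrp4f. Only NoTg arrays carried that probe through the filter, so nothing is read from its calls. Leaving out 1 array gave 0 to 1 calls in Tg Foxo3-/- against Tg Foxo3+/- ovaries and 0 in the other comparisons. No background correction, the stricter filter and a fit of only the compared groups changed none of these counts. With the replicate number as a block the counts were unchanged and Nlrp14 kept its call (limma adjusted p = 0.0371); the numbers are not said to pair arrays, and same-numbered arrays correlated at -0.18 to 0.26 in their deviations, with 6 of 18 pairs over 0.1. Of 1065 alternative values of single probes, 998 kept direction and side of the threshold, 10 lost and 5 gained a call, and 52 changed sign without being called in either setting. With median scaling the median log2 difference of all tested probes was -0.08 (Tg) and 0.14 (NoTg) for the genotype, 0.13 (Foxo3+/-) and -0.10 (Foxo3-/-) for the transgene and -0.23 for the interaction. Over all probes the genotype calls without the transgene were 90 higher and 115 lower, against 52 and 10 with median scaling and 169 and 19 with the authors' values; with the transgene they were 336 higher and 155 lower, against 34 and 20, and 159 and 65. The cause was not tested. Signals near background limit Nlrp4f, Nlrp9b and the dim Nlrp4c probe.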

Other observations

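Nlrp4g, a further copy of the Nlrp4 genes that is not among the 10 and was looked at after its values were seen, had 1 probe detected on all arrays. It was 9.45 ± 0.10 in Tg Foxo3-/- and 8.98 ± 0.06 in Tg Foxo3+/- ovaries (SD, n = 3 each), and rose 1.39-fold (log2 difference 0.47 ± 0.12 SE, limma adjusted p = 0.0489). It was 9.53 ± 0.15 in NoTg Foxo3-/- and 8.98 ± 0.14 in NoTg Foxo3+/- ovaries, and rose 1.47-fold (0.56 ± 0.12 SE, limma adjusted p = 0.0374). The transgene differences were 0.00 in Foxo3+/- and -0.08 in Foxo3-/- ovaries. No alternative setting was run for it.

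The dim Nlrp4c probe (ILMN_1214165) was detected on no Tg array, on 2 NoTg Foxo3-/- arrays and on 1 NoTg Foxo3+/- array. Its nearest genes over the 12 arrays were S100a8 (r = 0.93) and S100a9 (r = 0.90), which encode calcium-binding proteins of neutrophils, whereas the bright Nlrp4c probe had neither among its 5 nearest. These too are the highest of many correlations and were not tested. The 2 probes correlated at r = 0.52 over the 12 arrays and at r = -0.04 in deviations from the group means.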
